A study of Mus musculus with 17 samples.

Results

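Klf2, Klf3, Klf6 and Klf13 encode Krüppel-like factors, zinc finger transcription factors that bind CACCC and GC boxes in DNA. These 4 genes, of 48709 listed in the deposited count table, were taken by symbol for the members of the family that are known in resting T cells. They were chosen by their levels in brain and blood, which were already known, so the differences of these 4 genes between brain and blood are given as descriptions, without p-values or calls. Counts were obtained from 17 RNA sequencing libraries of mouse CD8+ T cells, the T lymphocytes that kill infected cells. APP-PS1 mice carry 2 transgenes, Mo/HuAPP695swe, a mouse/human hybrid of the amyloid precursor protein with the Swedish mutation, and PS1-dE9, a mutated presenilin 1 of human origin. The prion protein promoter directs both transgenes to neurons of the central nervous system, and their expression in the sequenced T cells was not examined. The groups were APP-PS1 brain (3 male libraries and 1 female library), APP-PS1 blood (2 male libraries and 1 female library), wild type (WT) brain (5 female libraries) and WT blood (5 female libraries). The labels name no treatment in any group. The study's design text speaks of aged animals, and the labels used here give no age for a library. All WT libraries are female and each APP-PS1 group holds 1 female library, so sex and strain are partly confounded. Brain was homogenized and cleared of myelin on a gradient, whereas blood went through red cell lysis, so tissue and preparation cannot be told apart.

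KLF2 holds naive and circulating memory T cells in a resting state and switches on receptors that keep them moving between blood and lymph, above all S1pr1. Antigen receptor and PI3K signalling switch it off, and memory T cells that settle in tissues have little of it. KLF3 is mainly a repressor that recruits CtBP proteins and is itself a target of other Krüppel-like factors in red cell precursors. KLF6 is an immediate early factor that responds to injury and growth signals, and KLF13 was first described in T cells as an activator of the chemokine gene Ccl5.

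The sequences before Klf2 and Klf3 are shown because these genes were the members with the lowest brain levels relative to blood. They come from RefSeq on GRCm38.p6, plus strand, and start 250 bases before the RefSeq start. They end at the last base before the gene in GENCODE M21, so that 221 bases are shown for Klf2 (chr8:72318812-72319032) and 117 bases for Klf3 (chr5:64803271-64803387). Capitals mark a MEF2 element (CTANNNNTAG, which reads the same on both strands), the element through which MEF2 factors are known to drive Klf2, and CACCC boxes (CACCC or its reverse complement GGGTG), the letters that Krüppel-like factors bind.
Klf2: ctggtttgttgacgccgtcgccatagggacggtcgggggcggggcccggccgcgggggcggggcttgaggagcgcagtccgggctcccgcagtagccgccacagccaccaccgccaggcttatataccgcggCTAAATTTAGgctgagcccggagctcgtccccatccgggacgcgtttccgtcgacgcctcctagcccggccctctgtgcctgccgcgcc
Klf3: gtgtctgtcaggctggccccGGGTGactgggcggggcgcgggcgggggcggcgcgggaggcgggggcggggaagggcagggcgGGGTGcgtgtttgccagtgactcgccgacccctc
The Klf2 stretch held 1 MEF2 element, CTAAATTTAG, which begins 89 bases before the annotated gene. The full 250-base windows of Klf3, Klf6 and Klf13 held none, against 3.20% of 32817 promoter windows of the same length with at least 1. The full windows held 5 CACCC boxes for Klf3, 1 each for Klf2 and Klf13, and 0 for Klf6, against 52.01% of all windows with at least 1. A FOXO element (GTAAACA or TGTTTAC) occurred in none of the 4 windows and in 3.16% of all windows. GC boxes (GGGCGG or CCGCCC, not in capitals) numbered 6 for Klf3, 3 for Klf13, 2 for Klf2 and 1 for Klf6, and 32.7% of all windows held at least 1. These are matches of letters and do not show binding.

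On GRCm38, Klf2 (ENSMUSG00000055148) lies on chromosome 8 from 72319033 to 72321656 and Klf3 (ENSMUSG00000029178) on chromosome 5 from 64803388 to 64832901. Klf6 (ENSMUSG00000000078) lies on chromosome 13 from 5861482 to 5870394, and Klf13 (ENSMUSG00000052040) on the minus strand of chromosome 7 from 63886351 to 63938915. All 4 are annotated as protein coding. Klf3 overlaps Gm20033 and C230096K16Rik, which had 2 and 0 counts in all libraries, and Klf13 overlaps Gm27252 and E030018B13Rik, which had 1 and 0 counts.

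Libraries were shallow, at 27646 to 214670 counts, and all 3 APP-PS1 blood libraries (39055 to 46336 counts) were shallower than all 5 WT blood libraries (62604 to 214670 counts). The CD8+ label was checked against 10 genes, those of the T cell receptor complex and CD8 and also Cd2. Their level was summed in CPM, that is counts scaled to the library total. The sum was 9261 to 11021 CPM in APP-PS1 brain and 8374 to 8783 CPM in APP-PS1 blood, where the groups did not overlap. In WT mice it was 10392 to 12275 CPM in brain and 8849 to 11717 CPM in blood. Cd4 and Foxp3 had 0 counts in all libraries. CPM are not divided by gene length and are therefore compared between groups, not between genes. The design text counts 7 APP-PS1 and 10 WT mice, as many as there are libraries, and no label says which brain and blood came from 1 mouse. The p-values measure the spread between these libraries.

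Klf2 was lower in brain than in blood in every library of both strains. Its level was 506, 176, 35.6 and 157 CPM in APP-PS1 brain replicates 1 to 4, against 1280.2, 1662 and 1119 CPM in APP-PS1 blood replicates 1 to 3. In WT brain replicates 1 to 5 it was 122, 200.1, 137, 114 and 136 CPM, against 661, 1052, 557, 1070.2 and 521 CPM in WT blood replicates 1 to 5. The highest brain library of each strain stayed below the lowest blood library of that strain. The APP-PS1 brain values spread widely and rest on 14, 15, 2 and 20 counts in replicates 1 to 4. Replicate 1, the highest, was the shallowest library of the series, and replicate 3, the lowest, had only 2 counts. Klf2 averaged 219 ± 202 CPM (SD, n = 4) in APP-PS1 brain and 1354 ± 279 CPM (SD, n = 3) in APP-PS1 blood, and the fitted log2 fold change was -2.88 (SE 0.40, 95% interval -3.68 to -2.08). In WT mice the log2 fold change of brain against blood was -2.46 (95% interval -3.12 to -1.81), which is 5.52-fold lower in brain. In bulk RNA, fewer cells that express a gene and less of its RNA per cell cannot be told apart, for Klf2 as for the other genes here.

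Klf3 had the lowest brain levels relative to blood of the 4 genes in APP-PS1 mice. It stood at 36.2, 46.8, 17.8 and 70.5 CPM in APP-PS1 brain, which rest on 1, 4, 1 and 9 counts, against 666, 949.6 and 608 CPM in APP-PS1 blood. In WT brain it was 122, 64.7, 58.6, 68.3 and 115 CPM, against 270.2, 569, 446, 687 and 246 CPM in WT blood. Brain and blood again did not overlap in either strain, and 3 of the 4 APP-PS1 brain libraries lay below all 5 WT brain libraries. Over the whole group, Klf3 had 15 counts in APP-PS1 brain, against 95 in APP-PS1 blood, although APP-PS1 brain libraries were on the whole deeper. The log2 fold change of brain against blood was -3.91 (SE 0.48, 95% interval -4.87 to -2.95) in APP-PS1 mice and -2.41 (SE 0.36, 95% interval -3.13 to -1.69) in WT mice. Klf3 reached the level needed to pass the expression filter, 117 CPM, in 0 of 4 APP-PS1 brain libraries and 1 of 5 WT brain libraries, but in all 8 blood libraries, so it was tested only because of blood.

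**Figure D1:**
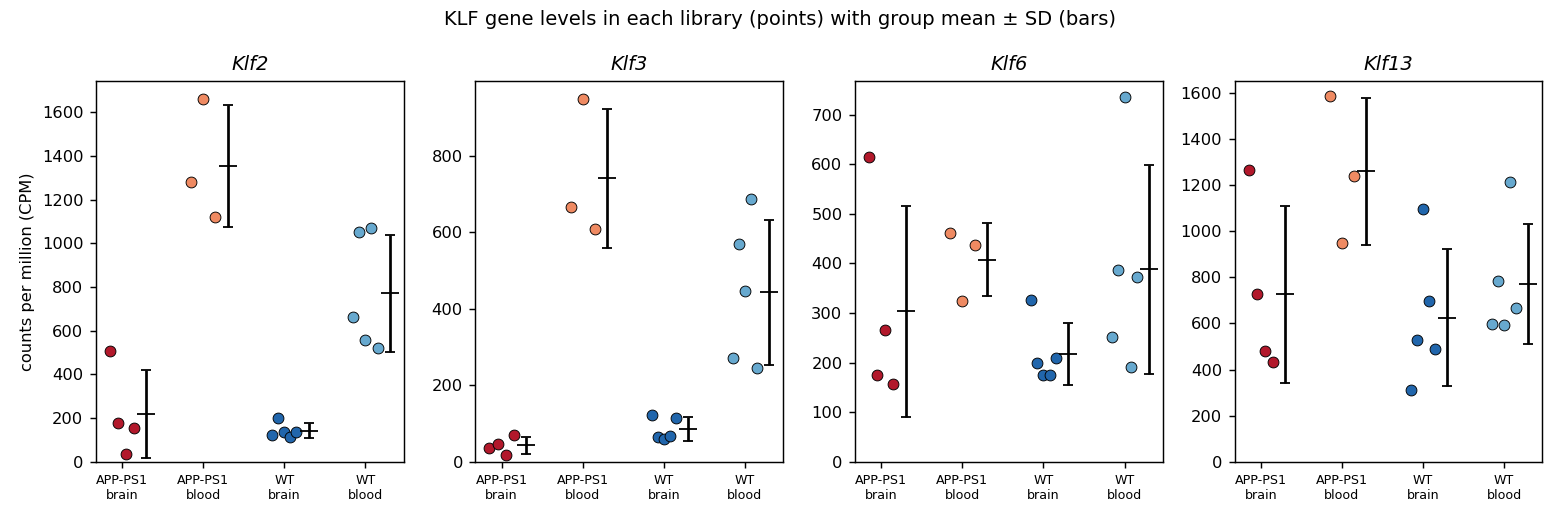
Level of each of the 4 genes in each library (CPM, linear axis from 0), with APP-PS1 brain, APP-PS1 blood, WT brain and WT blood side by side; points are libraries, and bars beside them are group means ± SD. Klf2 and Klf3 brain points lie below all blood points of the same strain, whereas Klf6 and Klf13 points overlap between tissues.

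Klf6 levels overlapped between brain and blood. Klf6 was at 615, 176, 267 and 157 CPM in APP-PS1 brain, against 461, 324 and 438 CPM in APP-PS1 blood. In WT brain it was at 327, 200.1, 176, 175 and 209 CPM, against 252, 387, 736, 192 and 373 CPM in WT blood. APP-PS1 brain replicate 1 exceeded every APP-PS1 blood library while the other 3 lay below them, and in WT mice 2 of 5 brain libraries lay below all blood libraries. The log2 fold change of brain against blood was -0.63 (SE 0.44, 95% interval -1.51 to 0.25) in APP-PS1 mice and -0.90 (SE 0.34, 95% interval -1.57 to -0.23) in WT mice.

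Klf13 levels also overlapped between the tissues. Klf13 was at 1266, 726, 480.0 and 431 CPM in APP-PS1 brain, against 1588, 949.6 and 1241 CPM in APP-PS1 blood. In WT brain it was at 313, 529.7, 1095, 698 and 490.4 CPM, against 596, 783, 591, 1214 and 668 CPM in WT blood. In each strain 3 brain libraries lay below all blood libraries, and the others were within the blood range. The log2 fold change of brain against blood was -0.89 (SE 0.34, 95% interval -1.57 to -0.20) in APP-PS1 mice and -0.38 (SE 0.28, 95% interval -0.94 to 0.17) in WT mice.

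Of the 2366 genes that passed the filter, 3.97% had every APP-PS1 brain library below every APP-PS1 blood library, and 1.14% had every WT brain library below every WT blood library. Because the genes were picked with these contrasts known, nothing is read from these shares. Averaged over strains, the log2 fold change was -2.67 for Klf2, -3.16 for Klf3, -0.77 for Klf6 and -0.64 for Klf13. The median log2 fold changes over all genes tested were 0.03 in APP-PS1 mice, 0.02 in WT mice and 0.03 averaged over strains.

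**Figure D2:**
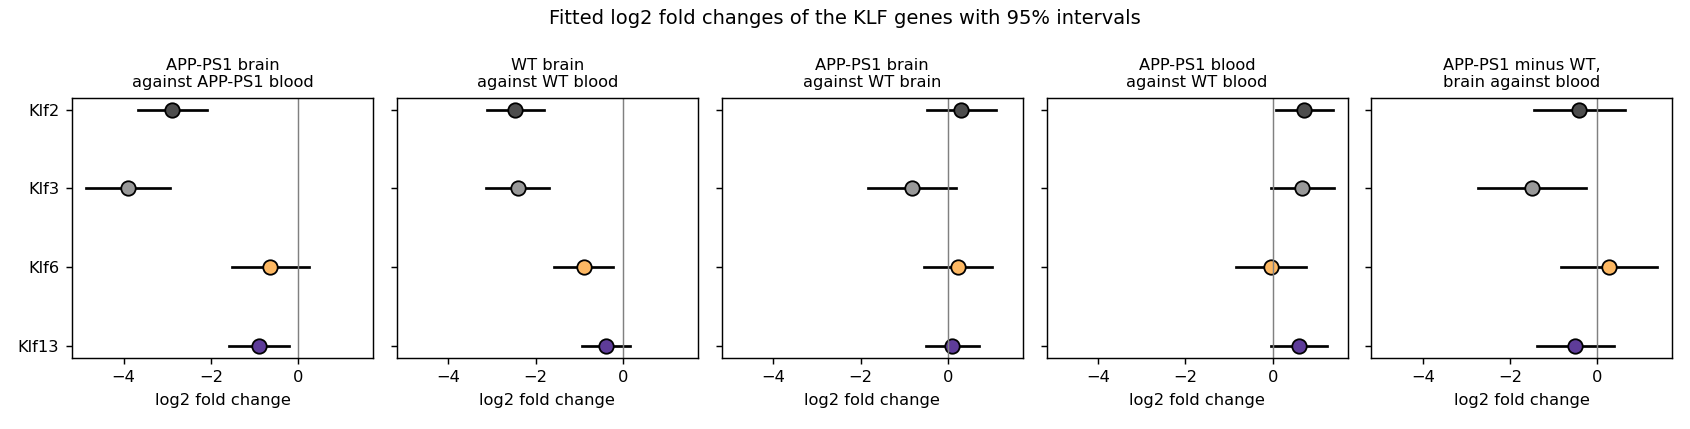
Log2 fold change of each gene with its 95% interval in 4 contrasts of 2 groups and, in the last panel, for APP-PS1 minus WT of brain against blood; the grey line marks no change. The brain against blood intervals of Klf2 and Klf3 reach no higher than -1.69 on the log2 scale, and most intervals of the strain contrasts include 0.

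Ratios within a library do not depend on how libraries are scaled to each other. For every 100 Klf13 counts there were 7.41 to 40 Klf2 counts in APP-PS1 brain and 80.6 to 175 in APP-PS1 blood. In WT mice there were 12.5 to 39.1 Klf2 counts per 100 Klf13 counts in brain and 77.9 to 134 in blood. The groups therefore did not overlap in this ratio either, which describes unequal change and not a constant Klf13. Klf3 per 100 Klf13 counts was 2.86 to 16.4 in APP-PS1 brain and 41.9 to 100 in APP-PS1 blood, and in WT mice 5.36 to 39.1 in brain and 36.8 to 75.5 in blood, where the ranges overlap. Klf6 per 100 Klf13 counts overlapped in both strains, at 24.2 to 55.6 in APP-PS1 brain and 29.03 to 35.3 in APP-PS1 blood, and at 16.1 to 104 in WT brain and 15.8 to 125 in WT blood. Klf3 per 100 Klf2 counts was 7.14 to 50.0 in APP-PS1 brain and 52 to 57.1 in APP-PS1 blood, against 32.4 to 100 in WT brain and 40.8 to 80.0 in WT blood. Only the APP-PS1 groups kept apart in this last ratio, and its APP-PS1 brain values rest on 1 to 9 Klf3 counts a library. The highest of these, 50.0 in replicate 3, was 1 Klf3 count beside 2 Klf2 counts, so nothing is read from this separation.

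Within the 4-gene total, Klf13 took a larger mean share in brain, and Klf2 and Klf3 smaller ones, in both strains. Klf13 averaged 57.4% of the 4-gene counts in APP-PS1 brain and 33.5% in APP-PS1 blood, and 56.2% in WT brain and 32.5% in WT blood. Klf2 averaged 15.0% in APP-PS1 brain and 35.9% in APP-PS1 blood, and 13.7% in WT brain and 32.3% in WT blood. The share of Klf3 was 4.13% in APP-PS1 brain and 19.7% in APP-PS1 blood, and 8.58% in WT brain and 18.0% in WT blood. Klf6 averaged 23.4% in APP-PS1 brain and 10.9% in APP-PS1 blood, and 21.5% in WT brain and 17.3% in WT blood. In APP-PS1 mice the shares of all 4 genes kept brain and blood libraries apart. In WT mice only those of Klf2 did: Klf13 took 35.4 to 74.7% in brain and 25.4 to 38.4% in blood, Klf3 4 to 13.8% in brain and 13.6 to 21.7% in blood, and Klf6 12 to 36.9% in brain and 6.06 to 31.6% in blood. The shares of a library add up to the whole, so when some fall the others must rise. The levels of Klf6 and Klf13 overlapped between tissues in both strains. As the genes were chosen with their brain and blood levels known, nothing is read from the separation of the shares. The sum of the 4 levels had a median of 969 CPM in APP-PS1 brain and 3885 CPM in APP-PS1 blood, and of 995 CPM in WT brain and 2330.2 CPM in WT blood.

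**Figure D3:**
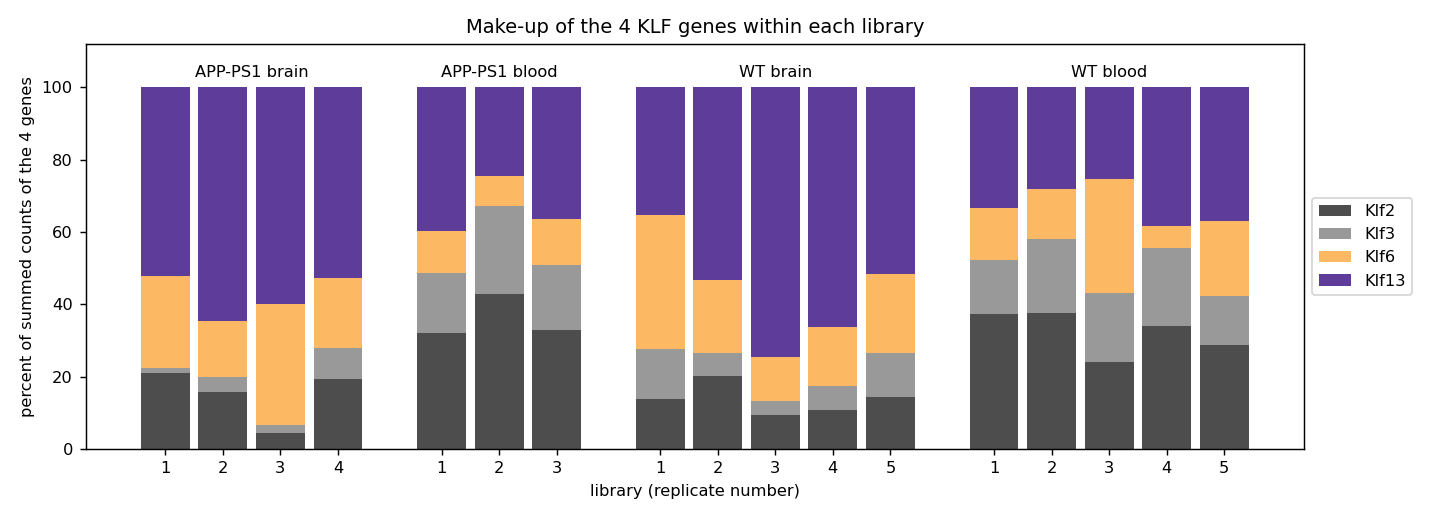
Share of each of the 4 genes in their summed counts in each library (percent), with the libraries ordered by group. The mean share of Klf13 is larger in APP-PS1 brain (57.4%) than in APP-PS1 blood (33.5%), and the same holds in WT mice, whereas Klf2 and Klf3 take smaller mean shares in brain.

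Strain was compared within each tissue to ask whether the amyloid model altered these factors. In brain, none of the 4 genes passed the test between APP-PS1 and WT mice. The log2 fold changes of APP-PS1 brain against WT brain were 0.31 (SE 0.39) for Klf2, -0.81 (SE 0.50) for Klf3, 0.24 (SE 0.38) for Klf6 and 0.10 (SE 0.30) for Klf13, each with an edgeR adjusted p of 0.999. Their 95% intervals reached 1.11 for Klf2 and -1.82 for Klf3, so that changes of up to this size are not excluded at this depth. With a call defined as an adjusted p below 0.05 over all 2366 genes in edgeR's quasi-likelihood test, 0% of them were called in this contrast, 98 had an unadjusted p under 0.05, and DESeq2 called 0. APP-PS1 brain replicate 1 was the highest of its group for Klf2, Klf6 and Klf13, and without it their log2 fold changes were -0.13, -0.15 and -0.17.

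In blood, Klf2 was at 1119 to 1662 CPM in APP-PS1 mice and at 521 to 1070.2 CPM in WT mice, so that all 3 APP-PS1 libraries lay above all 5 WT libraries. The log2 fold change was 0.73 (SE 0.33, 95% interval 0.07 to 1.39), and it did not pass the test (edgeR adjusted p = 0.557). Among all genes tested, 3.25% had every APP-PS1 blood library above every WT blood library. Klf3 (log2 fold change 0.68, SE 0.36, edgeR adjusted p = 0.651) and Klf13 (0.61, SE 0.32, edgeR adjusted p = 0.641) had positive values with overlapping groups, and Klf6 had -0.03 (SE 0.40, edgeR adjusted p = 0.988). In this contrast 0.0423% of genes were called, which is 1 gene, the lymph node homing receptor Ccr7. With female libraries only, which leaves 1 APP-PS1 blood library, assumed to vary like the others, the value was 0.47 for Klf2 and 0.41 for Klf3. Depth moves with strain in blood as given above, and the part of depth in these values was not tested. The log2 fold change of brain against blood in APP-PS1 mice minus that in WT mice was -1.50 for Klf3 (SE 0.62, 95% interval -2.74 to -0.26), which did not pass the test (edgeR adjusted p = 0.937) and was -0.62 with female libraries only. The same difference was -0.42 (SE 0.52) for Klf2, 0.27 (SE 0.55) for Klf6 and -0.50 (SE 0.44) for Klf13, each with an edgeR adjusted p of 0.999, and 0.0423% of genes tested were called. Across all alternatives run, the lowest adjusted p of any of the 4 genes in a strain contrast was 0.429.

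The rest of the Krüppel-like family was barely detected. Of 13 other Klf genes, 7 had no count in any library, among them Klf1, Klf5 and Klf12, and the other 6 had 8 to 68 counts over all 17 libraries. The 13 genes had 212 counts together, against 2653 for Klf2, Klf3, Klf6 and Klf13, and none passed the expression filter. The most counted were Klf16 with 68 counts, Klf10, a target of TGF-beta signalling, with 64, and Klf7 with 42. Of 9 genes of the related SP family, only Sp3 was tested, and its log2 fold change of brain against blood was -0.98 in APP-PS1 mice and -0.64 in WT mice, neither of which passed the test (edgeR adjusted p = 0.603 and 0.793). Klf4, which also restrains the division of CD8+ T cells, had 12 counts in 6 libraries.

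Of 89 genes listed around the 4 factors, 31 were tested. In APP-PS1 brain 2 of them were called lower than in APP-PS1 blood and 0 higher, beside 0.338% of all genes tested that were called lower. In WT brain 3 were called lower than in WT blood and 0 higher, beside 0.549% of all genes. The median log2 fold change of the 31 genes was -0.37 in APP-PS1 mice and -0.14 in WT mice, beside 0.03 in APP-PS1 mice and 0.02 in WT mice over all genes tested. Averaged over strains, 8 were called lower and 0 higher, beside 1.35% of all genes that were called lower. The lists were chosen with earlier results of these data known, so nothing is read from the list counts beside these shares.

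Receptors that KLF2 is known to switch on were called lower in brain in part. All 4 tested had negative log2 fold changes in both strains, with 1 called in APP-PS1 mice, 2 in WT mice and 3 averaged over strains. Ccr7, which guides T cells into lymph nodes, averaged 24.8 ± 12.9 CPM (SD, n = 4) in APP-PS1 brain and 503 ± 119 CPM (SD, n = 3) in APP-PS1 blood. Its level was 19.2 ± 7.51 CPM in WT brain, against 79.0 ± 38.0 CPM in WT blood (SD, n = 5 each), where the log2 fold change of -1.95 did not pass the test (edgeR adjusted p = 0.106). APP-PS1 blood exceeded WT blood in Ccr7 by 2.54 on the log2 scale (SE 0.51, edgeR adjusted p = 0.0169), a call that was lost in 12 of 26 alternatives. Leaving out any 1 blood library other than WT blood replicate 4 was enough to lose it, with adjusted p of 0.0543 (without WT blood replicate 1) to 0.274 (without APP-PS1 blood replicate 1), and with sex as a term it was 0.539. S1pr1, the receptor for sphingosine 1-phosphate that lets T cells leave tissue, had 6 counts in 2 of 5 WT brain libraries and 71 counts in all 5 WT blood libraries. It was called lower in WT brain but not in APP-PS1 brain, where 3 counts stood against 6 in APP-PS1 blood, and the difference between strains did not pass the test (edgeR adjusted p = 0.999). The WT call of S1pr1 was lost without WT blood replicate 2 (adjusted p = 0.0785), WT blood replicate 4 (0.108) or WT brain replicate 4 (0.0674), and its averaged call in 9 of 25 alternatives, 7 of which left out 1 library. Neither Ccr7 nor S1pr1 exceeded 36.2 CPM in any brain library, below the 117 CPM of the expression filter. Both were therefore tested only because of blood, which favours calls lower in brain. Itgb7, an integrin subunit for gut homing, had -0.39 in APP-PS1 mice and -0.13 in WT mice, and neither passed the test. Cxcr3, a chemokine receptor that is higher in T cells without KLF2, had 0.26 in APP-PS1 mice and 0.77 in WT mice, which did not pass the test (edgeR adjusted p = 0.914 and 0.534).

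**Figure D4:**
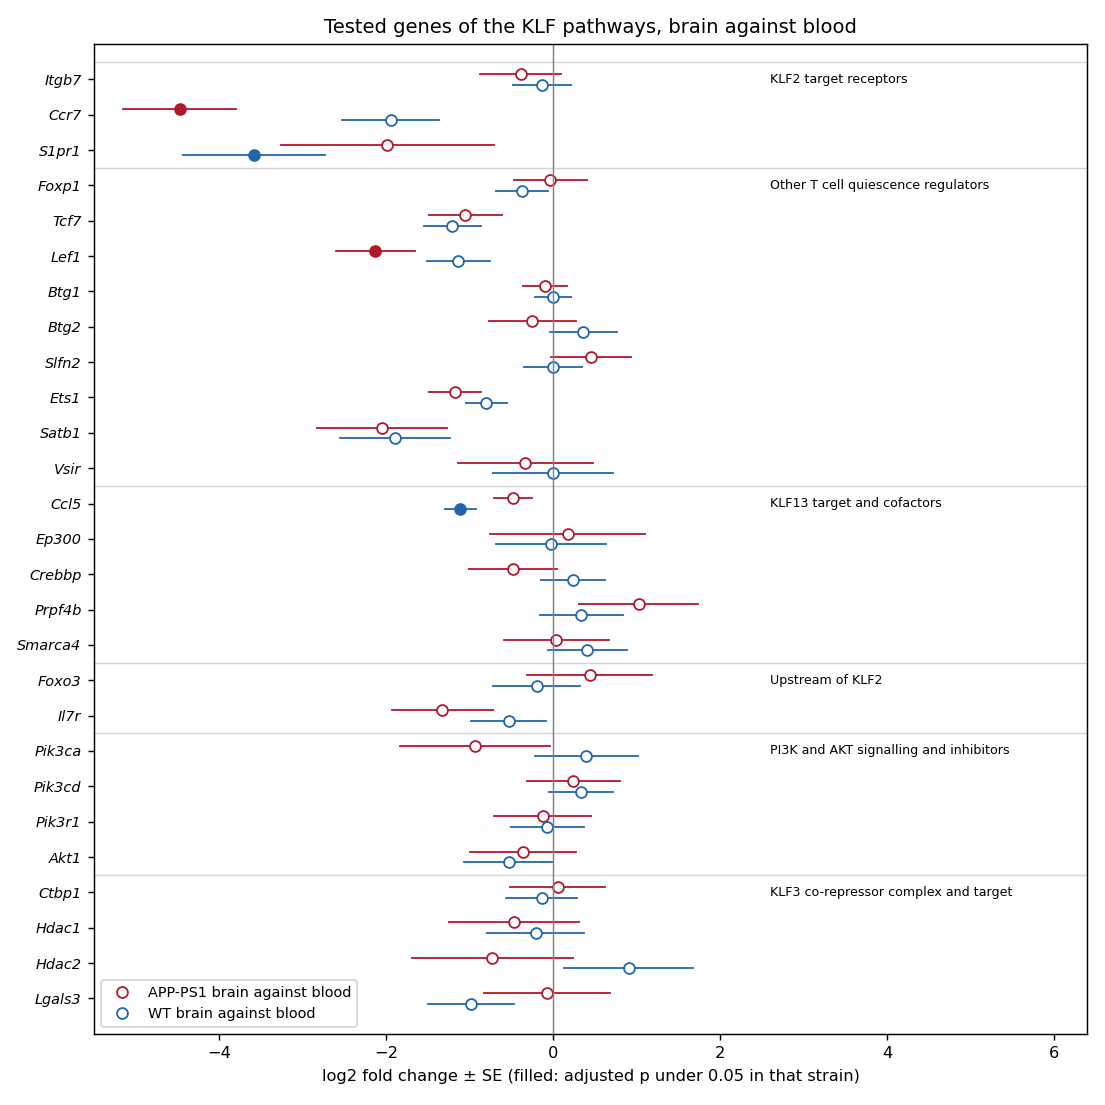
Log2 fold change of brain against blood for tested genes around the 4 factors, by list, with APP-PS1 and WT values as separate points and bars of 1 SE; filled points were called at an adjusted p under 0.05, and some tested genes, Sp3 and Cxcr3 among them, are not shown. Filled points all lie left of 0, with Ccr7 at -4.47 in APP-PS1 mice and S1pr1 at -3.59 in WT mice.

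None of the tested genes that act on KLF2 passed the test. Of 10 listed upstream of it, 2 were tested, and Il7r, the interleukin 7 receptor chain and like Klf2 a FOXO1 target, had -1.33 in APP-PS1 mice and -0.53 in WT mice (edgeR adjusted p = 0.437 and 0.861). Foxo3, a FOXO factor, had 0.44 in APP-PS1 mice and -0.20 in WT mice. Of 13 genes of PI3K and AKT signalling and its inhibitors 5 were tested and none was called. Pik3cd, the kinase subunit of lymphocytes, had 0.24 in APP-PS1 mice and 0.33 in WT mice, and Pik3r1, a regulatory subunit, had -0.13 in APP-PS1 mice and -0.07 in WT mice. The ubiquitin ligase genes Wwp1, Fbxw7 and Smurf1 had 113, 70 and 29 counts in all and were not tested.

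Among partners and targets of the other 3 factors, Ccl5 was the gene that passed the test. Of 8 genes of the KLF3 co-repressor complex and its target, 4 were tested and 0 called. Ctbp1, the co-repressor, had 0.05 in APP-PS1 mice and -0.14 in WT mice, and Lgals3, a galectin that KLF3 represses, had -0.08 in APP-PS1 mice and -0.99 in WT mice. None of 5 KLF6 target genes was tested, the most counted being Tgfb1 with 58 counts. Ccl5, the target of KLF13, fell in WT brain by 1.11 on the log2 scale (SE 0.19, edgeR adjusted p = 0.000121) and remained called under all 26 alternatives. In APP-PS1 mice its log2 fold change was -0.48 (SE 0.23, edgeR adjusted p = 0.435), and the difference between strains did not pass the test (edgeR adjusted p = 0.945). Its level was 20850.3 ± 3007 CPM in WT brain, against 43113 ± 8209 CPM in WT blood (SD, n = 5 each).

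Of 9 tested regulators of T cell quiescence outside the family, 8 had negative log2 fold changes of brain against blood in each strain and 1 a positive one. Some of the negative values were close to no change. In WT mice Btg1 had -0.0012, Vsir -0.0022 and Slfn2 -0.0051, and in APP-PS1 mice Foxp1 had -0.034. Over all 2366 genes tested, 1142 had negative values in APP-PS1 mice and 1146 in WT mice. Lef1, a factor of naive and stem-like T cells, was called lower in APP-PS1 brain (log2 fold change -2.13, SE 0.47, edgeR adjusted p = 0.00969), a call lost without APP-PS1 blood replicate 2 (adjusted p = 0.0865) or APP-PS1 brain replicate 4 (0.0710), and in 4 of 26 alternatives in all. In WT mice Lef1 had -1.14 (edgeR adjusted p = 0.194). Averaged over strains Tcf7, Lef1, Ets1 and Satb1 were called lower. Tcf7, the partner of Lef1, had -1.13 (SE 0.28, edgeR adjusted p = 0.0109), Ets1, a factor of T cell quiescence and survival, -0.99 (SE 0.20, edgeR adjusted p = 0.000731) and Satb1, a chromatin organizer, -1.97 (SE 0.51, edgeR adjusted p = 0.0194). Btg1, an antiproliferative factor, had -0.10 in APP-PS1 mice and did not pass the test in either strain. Without APP-PS1 blood replicate 3, the averaged calls of Tcf7 and Satb1 were lost (adjusted p = 0.0543 and 0.0808). Satb1 reached at most 102 CPM in any brain library, so it too was tested only because of blood.

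The genes most like each factor were sought by Pearson's r of log2(CPM + 10) over the 17 libraries, which share group structure and shallow depth. Klf2 was most like Klf3 (r = 0.883), and outside the 4 factors like Cmah (0.862), the co-stimulatory receptor Cd28 (0.821), Ccr7 (0.809), Lef1 (0.807) and Ier2 (0.802). With each group's mean subtracted, the r of Klf2 and Klf3 was 0.451, that of Klf2 and Klf13 was 0.515, and that of Klf2 and Klf6 was 0.140. The leading genes for Klf2 within groups were then Tspan31 (0.826), Spata13 (0.807) and Ctbp1 (0.793). Klf6 was most like Atp11b (0.732), Mapre1 (0.728) and Tapbp (0.723), and Klf13 was most like Cd47 (0.838), Rhob (0.795) and Rpl4 (0.792). Within groups Klf6 was led by S100a6 (0.827) and Klf13 by Hypk (0.872).

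For Klf3, 4 of the 5 most alike genes over the 17 libraries encode haemoglobin, Hba-a1 (0.905), Hbb-bt (0.884), Hbb-bs (0.860) and Hba-a2 (0.845). Klf2 had 0.784, 0.780, 0.682 and 0.735 with the same genes in this order. For Klf6 these r were 0.173 to 0.332 and for Klf13 0.217 to 0.371. With group means subtracted the Klf3 values were 0.375, 0.308, 0.079 and 0.249. The Klf2 values were then 0.145, 0.061, -0.451 and -0.123. The summed level of 7 red cell markers was 36.2 to 368 CPM in APP-PS1 brain and 2970 to 8071 CPM in APP-PS1 blood, and 156 to 873 CPM in WT brain and 2152 to 9967 CPM in WT blood. The markers Alas2, Slc4a1 and Klf1 were at 0 in all libraries, so that the sum consists of the 4 haemoglobin genes. In WT blood replicates 3, 1, 5, 2 and 4 the sums were 2152, 2772, 8142, 9608 and 9967 CPM. Klf3 stood at 446, 270.2, 246, 569 and 687 CPM in these libraries. In APP-PS1 blood replicates 1, 3 and 2 the sums were 2970, 7056 and 8071 CPM, with Klf3 at 666, 608 and 949.6 CPM. The part of red cell RNA in the values of the 4 factors was not tested.

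**Figure D5:**
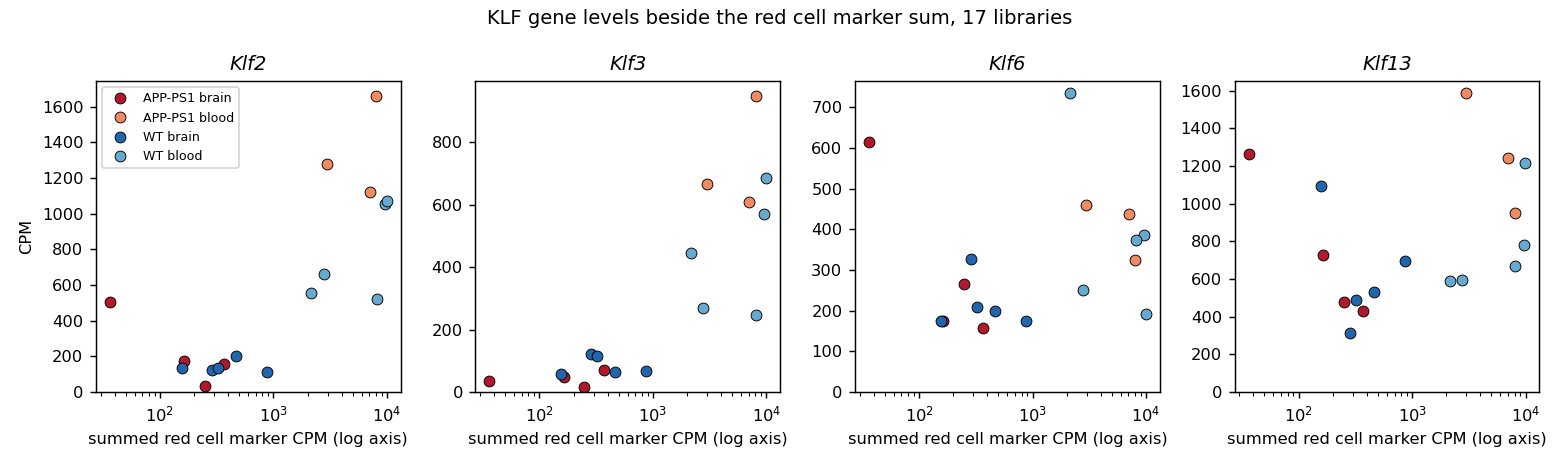
Level of each of the 4 genes (CPM, linear axis) against the summed level of 7 red cell markers (CPM, log axis), 1 point per library coloured by group. Brain points lie at 36.2 to 873 CPM of the sum and blood points at 2152 to 9967 CPM. Among blood libraries the lowest Klf3 level, 246 CPM, stands at a sum of 8142 CPM and the highest, 949.6 CPM, at 8071 CPM.

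Markers of other cell types were summed in each library. The 8 endothelial markers summed to 0 to 36.2 CPM in APP-PS1 brain, 43.2 to 97.3 CPM in APP-PS1 blood, 22.8 to 93.9 CPM in WT brain and 9.82 to 60.6 CPM in WT blood, with Cldn5, Cdh5, Flt1 and Tek at 0 throughout. They were lower in every APP-PS1 brain library than in any APP-PS1 blood library, but rest on 5 and 8 counts in these groups. Slc2a1 alone made up 87.5% of the APP-PS1 blood counts, so nothing about endothelial cells is read from this. The 10 microglia markers summed to at most 160.0 CPM in APP-PS1 brain and 109 CPM in WT brain, with P2ry12, Tmem119, C1qa, Trem2 and Sall1 at 0, and reached 195 CPM in APP-PS1 blood and 174 CPM in WT blood. The 10 B cell markers summed to 107 to 597 CPM in APP-PS1 brain and 170.3 to 345 CPM in APP-PS1 blood, and to 68.1 to 97.7 CPM in WT brain and 128 to 479 CPM in WT blood, with Ms4a1 and Ighd at 0. Every WT brain library thus lay below every WT blood library, as it did for Klf2 and Klf3. Igkc, the kappa light chain constant region, led this sum except in APP-PS1 blood. It averaged 49.4 ± 21.8 CPM in WT brain and 206 ± 83.7 CPM in WT blood (SD, n = 5 each) and was called lower in WT brain (log2 fold change -2.12, SE 0.53, edgeR adjusted p = 0.0307). This call was lost when blood replicate 1, 2 or 4 of the WT mice was left out, and likewise for their brain replicates 1, 4 and 5, with adjusted p of 0.0648 to 0.122. Igkc was also the 1 gene called for the difference between strains of brain against blood (edgeR adjusted p = 0.0104), with 57 counts in APP-PS1 brain, 2 in APP-PS1 blood, 26 in WT brain and 132 in WT blood. That call was lost without APP-PS1 brain replicate 2 (adjusted p = 0.619) or without APP-PS1 blood replicate 1 (0.125), 2 (0.0832) or 3 (0.0565), and with DESeq2 (0.0679). The 6 natural killer cell markers, mostly as Eomes, which CD8+ T cells also express, reached 387 CPM at most in any library with Ncr1 at 0. The 9 monocyte and neutrophil markers summed to 231 to 501 CPM in APP-PS1 brain and 282 to 341 CPM in APP-PS1 blood. In WT mice they summed to 235 to 522 CPM in brain and 178 to 501 CPM in blood. This sum was mostly Cst3 and Ccr2, with 266 and 317 counts in all libraries, against 13 for Lyz2. S100a8, S100a9, Cd14 and Fcgr3 were at 0, so nothing about these cells is read from the sum. Neural and glial markers reached 196 CPM and platelet markers 151 CPM, led by Mbp and Pf4. The part of these cells in the levels of the 4 factors was not tested.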

How the data were processed

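The authors deposited raw whole-number counts for each gene. GRCm38, Bowtie2 2.2.2, HTSeq 0.11.2, FastQC and DESeq2 appear in the submitters' processing notes, which state neither their order nor their use. Strand setting and molecular identifiers: not given in the sources used here. Groups come from the labels, and 48349 of 48709 identifiers matched GENCODE M21. The 4 factors and all lists were chosen with earlier results of these data known.

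The test was edgeR 4.0.16 under R 4.3.3 (TMM; filterByExpr, which kept 2366 genes at about 117 CPM in 3 or more libraries; robust quasi-likelihood F tests, 1 mean per group over all 17 libraries, Benjamini-Hochberg over all genes tested, called at an adjusted p under 0.05). A standard error is the absolute log2 fold change over the square root of F, and errors cover the spread between libraries. Replicates were compared by chi-square over genes in 29 pairs. No pair was identical, and the statistic per degree of freedom was 2.59 to 5.69. Named genes were the 4 factors, each list's called genes (otherwise its 3 most abundant), the leading gene of each marker list and the 5 most alike genes. In the text some of these are given as ranges or counts, and some listed genes are not reported here. Klf4, Vsir, Slfn2 and Foxp1 were named after their values were seen. The steps were checked on simulated data. Alternatives were RLE size factors, DESeq2 1.42.0, other filters, only the groups compared, a sex term, only the female libraries, leaving mitochondrial, ribosomal and haemoglobin genes out, and leaving out each library. Promoter windows come from RefSeq. Tables and figures were made with Python 3.11.15 and matplotlib 3.10.9.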

Additional observations from a re-analysis of the deposited data

Results flagged for a closer look

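Klf2 in WT brain replicate 2 stood at 200.1 CPM, above the other 4 WT brain libraries at 114 to 137 CPM. The gap to its neighbour was 0.733 of the group's range. Klf6 in WT brain replicate 1 stood at 327 CPM, above the other 4 at 175 to 209 CPM, with a gap of 0.775 of the range. Such a gap was sought in 27 sets of values, groups of 4 or 5 libraries for single genes, ratios or sums, and chance gives about 1 in 20.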

How the results depend on the processing

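Of 308 alternative log2 fold changes of brain against blood for the 4 factors, 305 kept their sign and moved by less than the spread between replicates, and 3 moved by more, all with female libraries only in APP-PS1 mice: Klf3 -3.06, Klf6 -1.44 and Klf13 -1.49. There each APP-PS1 group holds 1 library, assumed to vary like the WT ones. Of 308 alternative strain values, 288 kept their sign, 20 reversed and none was called. For Klf6 in APP-PS1 blood against WT blood, RLE size factors gave 0.0209, DESeq2 0.0207 and female libraries only 0.11. With sex as a term, APP-PS1 brain against WT brain was -0.0421 for Klf6 and -0.19 for Klf13, and with female libraries only -0.41 and -0.46. Leaving out both libraries lowest on the first principal component, a choice made after seeing the data, gave -0.13 for Klf2, -0.15 for Klf6 and -0.17 for Klf13 there. The Klf6 difference between strains was -0.52 with female libraries only and -0.0720 without those 2 libraries. The causes were not tested.

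Leaving out 1 library moved APP-PS1 brain against WT brain between -0.13 and 0.65 for Klf2, -0.15 and 0.49 for Klf6, and -0.17 and 0.38 for Klf13. It moved APP-PS1 blood against WT blood between -0.18 and 0.31 for Klf6 and the Klf6 difference between strains between -0.11 and 0.52. The genes called numbered 8 to 26 for APP-PS1 brain against blood (13 with all libraries), 0 to 3 for APP-PS1 blood against WT blood (1) and 0 to 1 for the difference between strains (1).

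Genes called in APP-PS1 brain against blood numbered 8 without mitochondrial, ribosomal and haemoglobin genes and 21 with DESeq2. In this contrast DESeq2 gave no adjusted p for 1284 of the 2366 genes, so its count covers fewer genes than that of edgeR. Averaged over strains, 14 were called with female libraries only, against 62. In APP-PS1 blood against WT blood there were 7 with a 5 CPM filter, 5 with no filter, 3 with only the groups compared, 3 without mitochondrial, ribosomal and haemoglobin genes, and 0 with sex as a term, with female libraries only or without those 2 libraries. The difference between strains had 0 with DESeq2, with female libraries only and without those 2 libraries. Fits with only the groups compared were not run for contrasts over all groups. No paired analysis was possible because no label gives brain and blood libraries a shared number. Depth limits Klf3 in APP-PS1 brain, with 15 counts in all.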
